A study of Mus musculus with 8 samples.

Results

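The Polycomb repressive complex genes examined here were the PRC2 genes Ezh1, Ezh2, Eed, Suz12 and Jarid2 and the PRC1 genes Bmi1, Rnf2, Ring1, Cbx7 and Cbx8. They were chosen by name, with earlier results of these data known, and all 10 had a row among the 12823 rows of the count table. RNA of mouse leukemia cells was sequenced in 8 libraries. The new AML group held 4 samples of the MLL-AF9 cells first formed in mice, and the aggressive AML group held 4 samples of such cells after serial transplantations. All of these cells carried the MLL-AF9 fusion, which joins the genes KMT2A and MLLT3, from a retroviral vector that also expresses GFP, so that the fusion was under the control of the vector and not of the Kmt2a locus. The new AML arose in sublethally irradiated C57BL/6 mice that received transduced bone marrow progenitors, and the aggressive AML was derived from it by 5 passages through mice that the methods describe as not irradiated. Irradiation of the host and passage therefore cannot be told apart between the groups. GFP+ cells of the bone marrow were used in both groups, the methods describe young adult mice and the labels give no age, and the labels number the samples as biological replicates without naming the animals. The paper does not say whether the samples of a group come from separate transductions or separate series of passages. The p-values below therefore set the difference of the groups against the spread between these samples. They may not cover the spread between independently made leukemias.

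Polycomb proteins keep genes silent through marks on histones. PRC2 methylates histone H3 through either of its catalytic subunits, EZH2 or EZH1, which act only in a core with EED and SUZ12. EED binds the finished methyl mark and stimulates the enzyme, SUZ12 holds the core together, and JARID2 is an accessory subunit that helps to recruit PRC2 and regulates its activity. PRC1 attaches ubiquitin to histone H2A through RNF2 (also called RING1B) or RING1, each paired with a PCGF protein such as BMI1. The CBX proteins of canonical PRC1 read the mark left by PRC2. In blood cells BMI1 is known for sustaining the self-renewal of stem cells by keeping Cdkn2a silent, EZH2 is the main catalytic subunit of dividing cells and EZH1 is used more in resting ones, and mouse leukemia driven by MLL-AF9 is known to need PRC2 activity.

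Ezh2 was the one member that passed the test. It fell in aggressive AML to 58.8% of its level in new AML (95% interval 49.2% to 70.3%), whereas its core partners Eed and Suz12, its paralog Ezh1, the accessory gene Jarid2 and all 5 PRC1 members stayed short of the threshold. All 10 members passed the filter on low counts. With edgeR, 1 of the 10 members had an adjusted p under 0.05 and it was lower, against 18.4% of all 12494 tested genes called in either direction, 10.2% called lower and 8.15% called higher. None of the members was called higher, and at an unadjusted p under 0.05 there were 2 members, Ezh2 and Cbx7. DESeq2 and limma also called 1 member. The share of members called was not above that of all genes. The median log2 fold change of the members was -0.03 and that of all tested genes 0, and the median size of change was 0.12 for the members and 0.19 for all genes.

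Short promoter stretches are shown first for the members whose start regions held the one sequence searched, a loose form of the site bound by E2F factors, which link transcription to the cell cycle. The site, TTTNNCGC, was looked for on both strands of the RefSeq promoter windows of GRCm38.p6, which run from 250 bases before to 50 bases after each start. All 10 members matched, with 11 windows, and the letters were found in the windows of 2 members, Ezh2 and Suz12. Of all 32851 windows, 5.17% held them. The matches are printed 5′ to 3′ on the strand of the gene, with the match in capitals, and lie at chr6:47595009-47595038 (minus strand) for Ezh2 and at chr11:79992876-79992905 (plus strand) for Suz12.
Ezh2: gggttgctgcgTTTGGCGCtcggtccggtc
Suz12: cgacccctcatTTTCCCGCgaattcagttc
The match began at position 4, counted with the start base included, in Ezh2 and 219 bases before the start in Suz12 (position -219). The windows of the members held 17 to 41 CpG dinucleotides, against a median of 7 over all windows. A match of this kind describes the letters only, and binding was not measured here. Of these genes Ezh2 was called lower and Suz12 was not called, as the values below show.

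The libraries held between 7805544 and 9697777 counts, and 1 read was therefore worth 0.103 to 0.13 CPM. CPM expresses the reads of a gene relative to all reads of its library, here with TMM scaling factors of 0.986 to 1.01. All 11 markers of the leukemia cells, among them Ptprc, Kit, Mpo, Hoxa9 and Meis1, were detected and tested, and 6 of them were called (54.5%, against 18.4% of all tested genes), 3 higher and 3 lower. The groups also differed in their Y-linked genes, and the cause was not tested. The paper gives the mice of this RNA sequencing as male. The 4 Y-linked genes of the table summed to 2315 to 2574 counts in each new AML library and to 0 in each aggressive AML library, although the aggressive cells are described as derived from the new ones. This difference runs through the whole comparison, with no library of either group on the other side, and its part in the results below was not tested.

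Ezh2 (chromosome 6, 47530139 to 47595341, minus strand, GRCm38) had 158.3, 162.3, 166.6 and 151.5 CPM in new AML replicates 1 to 4 and 110.6, 97.9, 65.8 and 101 CPM in aggressive AML replicates 1 to 4. Every aggressive AML library lay below every new AML library, and aggressive AML replicate 3 was the lowest. The means were 159.7 ± 6.40 and 93.8 ± 19.4 CPM (SD, n = 4 each). On the log2 scale it fell by 0.77 (SE 0.12, adjusted p = 0.00048). The gene was still called when aggressive AML replicate 3 was left out, with a log2 fold change of -0.63. A fall at least as large was found in 585 of the 12494 tested genes (4.68%), and in 59 of the 5001 genes with a mean of at least 50 CPM (1.18%). In bulk RNA a smaller share of cells that express Ezh2 and less Ezh2 RNA per cell cannot be told apart. Exons of Ezh2 overlap those of Gm26625 on the opposite strand, and the strand setting of the counting was not given.

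Ezh1, which encodes the alternative catalytic subunit (chromosome 11, 101191115 to 101226463, minus strand), had 44.8, 42.3, 38.8 and 48.2 CPM in the new AML libraries and 48.4, 40.5, 35 and 38.5 CPM in the aggressive AML libraries. The groups overlapped, with the highest value in aggressive AML replicate 1. With a log2 fold change of -0.10 (95% interval -0.34 to 0.14, adjusted p = 0.585), the level of Ezh1 was not found to rise where that of Ezh2 fell.

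The balance of the paralogs was also taken within each library, where the scaling of the library drops out. The log2 ratio of Ezh1 to Ezh2 counts was -1.82, -1.94, -2.10 and -1.65 in new AML and -1.19, -1.27, -0.91 and -1.39 in aggressive AML. Every aggressive AML library lay above every new AML library. The geometric mean corresponded to 27.2 Ezh1 counts per 100 Ezh2 counts in new AML and 43.8 in aggressive AML, a ratio 1.61 times as high. The exact two-sided permutation test over the 70 choices of 4 libraries gave p = 0.0286, the smallest it can give, and 0.0857 after adjustment over the 3 paralog pairs tested. The ratio holds the same Ezh2 counts as the fold change above and adds no independent test of its fall. Per kilobase of exon, the unit in which genes can be compared, Ezh1 made up 11.2% ± 1.30 of the summed Ezh1 and Ezh2 level in new AML, compared with 16.8% ± 2.03 in aggressive AML (SD, n = 4 each). That sum came to 64.1 ± 1.65 CPM per kb in new AML and to 40.2 ± 7.72 CPM per kb in aggressive AML, and Ezh2 remained the more abundant paralog in every library.

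**Figure D1:**
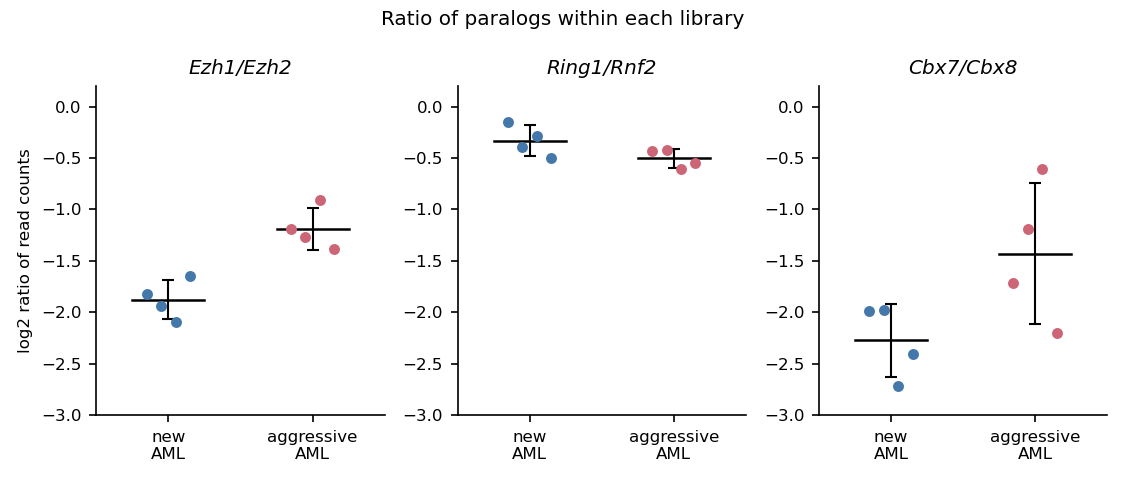
The plot shows the log2 ratio of read counts of 3 paralog pairs within each library, with points for the 4 new AML and 4 aggressive AML libraries, a line at the mean and bars for the SD. The Ezh1/Ezh2 ratio of the groups did not overlap (mean -1.88 and -1.19), while the Ring1/Rnf2 and Cbx7/Cbx8 ratios overlapped.

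Eed (chromosome 7, 89954654 to 89980983, minus strand) had 84.2, 82.2, 95.7 and 83.1 CPM in new AML and 77.4, 85.7, 74.7 and 87.3 CPM in aggressive AML. The groups overlapped, and new AML replicate 3 stood above the other new AML libraries. For Eed the log2 fold change was -0.09 (95% interval -0.27 to 0.10, adjusted p = 0.519). Suz12 (chromosome 11, 79993106 to 80034123, plus strand) had 247.4, 234.4, 234.9 and 227.8 CPM in new AML and 234.1, 255.9, 261.2 and 230.9 CPM in aggressive AML. Its groups overlapped as well, and the log2 fold change was 0.06 (95% interval -0.09 to 0.21, adjusted p = 0.619). The intervals of both core partners lay above the whole interval of Ezh2, which reached up to -0.51. Exons of Eed and Suz12 overlap those of E230029C05Rik and Gm26563 on the opposite strand.

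Jarid2, the accessory subunit (chromosome 13, 44729474 to 44921643, plus strand), had 144.5, 160.5, 140.6 and 157.7 CPM in new AML and 155.7, 159.9, 191.3 and 165.5 CPM in aggressive AML. The highest value was again that of aggressive AML replicate 3, and the groups overlapped. Jarid2 had a log2 fold change of 0.16 (95% interval -0.02 to 0.33, adjusted p = 0.208). Aggressive AML replicate 3, the library with the fewest reads, thus held the lowest Ezh1, Ezh2 and Eed values of its group and the highest Suz12 and Jarid2 values. Without it the log2 fold change of Jarid2 was 0.09 and that of Suz12 was 0.03.

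By mean level per length, the core members Ezh2, Suz12 and Eed stood in a different order in each group, which was not tested. The further core genes Rbbp4 and Rbbp7 lay above them in both groups. Their means were 105.6 and 112.1 CPM per kb in new AML and 110.4 and 122.1 CPM per kb in aggressive AML. In new AML the level of Ezh2 was 57.0 ± 2.29 CPM per kb, that of Suz12 54.0 ± 1.87 and that of Eed 41.7 ± 3.07 CPM per kb, where the ranges of Ezh2 and Suz12 overlapped. In aggressive AML Suz12 was at 56.1 ± 3.49 CPM per kb, Eed at 39.3 ± 2.99 and Ezh2 at 33.5 ± 6.94 CPM per kb (SD, n = 4 each). Ezh2 was thus the highest of these 3 genes in new AML by its mean and the lowest in aggressive AML, where its range of 23.5 to 39.5 CPM per kb overlapped with that of Eed and with that of Jarid2, whose mean level was 27.3 ± 2.60 CPM per kb. The level of Ezh1 was 7.16 ± 0.648 CPM per kb in new AML and 6.68 ± 0.937 CPM per kb in aggressive AML, the lowest of the PRC2 members in both groups.

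**Figure D2:**
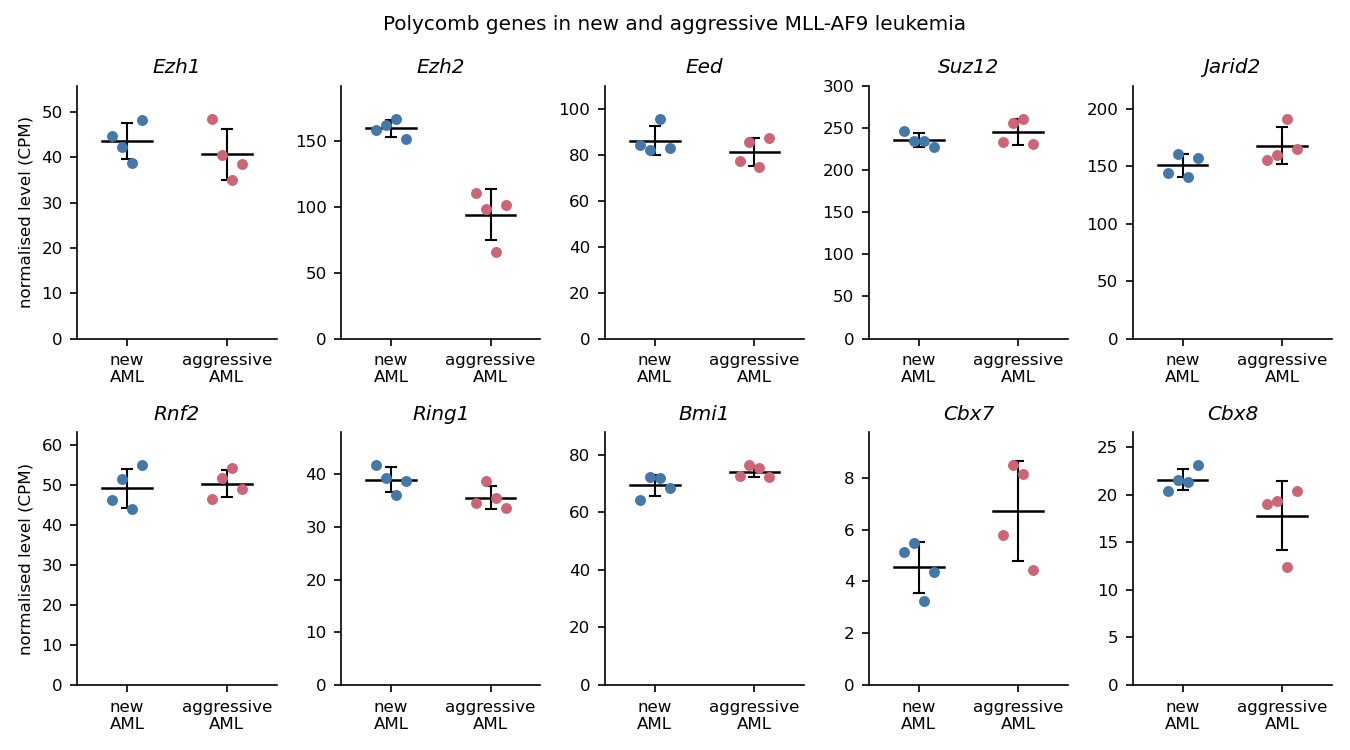
The plot shows the level in CPM of each of the 10 members in each library, with points for the 4 new AML and 4 aggressive AML libraries, a line at the mean and bars for the SD, on axes that start at 0. For Ezh2 the aggressive AML values (65.8 to 110.6 CPM) lie well below the new AML values (151.5 to 166.6 CPM), the groups also stay apart, by small margins, for Bmi1 and Cbx8, and they overlap in whole or in part for the other members.

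Among the catalytic subunits of PRC1, Rnf2 (chromosome 1, 151458004 to 151500955, minus strand) had 46.4, 51.5, 44 and 55 CPM in new AML and 46.5, 51.8, 54.3 and 49.1 CPM in aggressive AML. The aggressive AML values lay within the range of the new AML values. Its log2 fold change was 0.04 (95% interval -0.17 to 0.25, adjusted p = 0.834), and its sign turned to -0.01 without new AML replicate 3. Ring1 (chromosome 17, 34020792 to 34024680, minus strand) had 41.7, 39.4, 36 and 38.8 CPM in new AML and 34.5, 38.6, 35.5 and 33.6 CPM in aggressive AML. The groups overlapped, and the log2 fold change was -0.13 (95% interval -0.34 to 0.07, adjusted p = 0.369). The log2 ratio of Ring1 to Rnf2 counts had means of -0.33 ± 0.15 in new AML and of -0.50 ± 0.09 in aggressive AML (SD, n = 4 each), a difference of -0.17 that missed the threshold (exact permutation p = 0.114, adjusted p = 0.114). Per kilobase Ring1 held 56.6% ± 2.51 of the summed level of both genes in new AML and 53.7% ± 1.58 in aggressive AML. Exons of Rnf2 overlap those of Trmt1l on the opposite strand.

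Bmi1, the PCGF partner of the catalytic subunits (chromosome 2, 18677018 to 18686629, plus strand), had 64.5, 72.3, 72.1 and 68.7 CPM in new AML and 72.7, 76.4, 75.4 and 72.5 CPM in aggressive AML. The groups did not overlap, but the lowest aggressive AML value and the highest new AML value were 72.5 and 72.3 CPM. Bmi1 had a log2 fold change of 0.10 (95% interval -0.07 to 0.26, adjusted p = 0.412), short of the threshold. Values of the groups did not overlap for 3 members, Ezh2, Bmi1 and Cbx8, against 21.8% of all tested genes. Bmi1 was the most abundant of the 6 PCGF genes per kilobase, with 40.1% ± 1.05 of their sum in new AML and 43.6% ± 2.45 in aggressive AML.

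The CBX readers were the least abundant members, with mean levels of 6.03 CPM per kb for Cbx8 and 1.34 CPM per kb for Cbx7 in new AML, and of 4.97 and 1.97 CPM per kb in aggressive AML. Cbx7 (chromosome 15, 79915807 to 79971119, minus strand) had 5.13, 5.47, 3.24 and 4.35 CPM in new AML and 5.78, 8.48, 8.17 and 4.44 CPM in aggressive AML. Aggressive AML replicate 4 lay within the range of the new AML libraries, and the other aggressive AML libraries lay above it. The log2 fold change was 0.56 (95% interval 0.02 to 1.10), with an unadjusted p of 0.0441 and an adjusted p of 0.141 in edgeR, so that it was not called. These values rest on few reads, and exons of Cbx7 overlap those of Apobec3 on the opposite strand. Cbx8 (chromosome 11, 119036305 to 119040969, minus strand) had 20.4, 21.5, 21.3 and 23.1 CPM in new AML and 19, 19.3, 12.4 and 20.4 CPM in aggressive AML. The groups touched at 20.4 CPM and did not overlap in the unrounded values. The log2 fold change was -0.27 (95% interval -0.59 to 0.04, adjusted p = 0.212), which became -0.14 when the lowest library, aggressive AML replicate 3, was left out. The log2 ratio of Cbx7 to Cbx8 counts had means of -2.27 ± 0.36 in new AML and of -1.43 ± 0.69 in aggressive AML (SD, n = 4 each), a difference of 0.85 that missed the threshold (exact permutation p = 0.0857, adjusted p = 0.114).

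The other subunits of the complexes were taken from a list of 39 genes, of which 36 were tested. In edgeR 8 of them (22.2%) were called, 3 higher and 5 lower, against 18.4% of all tested genes, with a median log2 fold change of -0.08. Leaving out a library gave 4 to 8 calls, and the excess of lower calls was kept in some of these fits and not in others. There were 3 higher and 2 lower calls without new AML replicate 1 or without aggressive AML replicate 2, 2 of each without new AML replicate 2 and 3 of each without new AML replicate 4. Without aggressive AML replicate 1 there were 4 higher and 2 lower calls, and without aggressive AML replicate 3 there were 4 higher and 3 lower. Of the PRC2 subunits on the list, Phf1 was called, while Rbbp4, Rbbp7, Aebp2, Mtf2, Phf19 and Lcor did not pass the threshold (log2 fold change 0.06, 0.12, -0.04, 0.22, -0.10 and 0.31). Of these, Mtf2 and Lcor had an unadjusted p of 0.0276 and 0.0399 in edgeR, with adjusted values of 0.103 and 0.132.

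Among them, Cbx6, which encodes a further CBX reader, had 19.5, 17.6, 17.4 and 22 CPM in new AML and 9.76, 12.4, 12.3 and 15.1 CPM in aggressive AML. It fell by 0.62 on the log2 scale (SE 0.15, adjusted p = 0.0105), and its exons are shared with the Npcd gene on the same strand, whose reads may be counted with it. Cbx2 was at 7.86 ± 1.46 and 5.23 ± 1.49 CPM (SD, n = 4 each) and missed the threshold (log2 fold change -0.58, adjusted p = 0.0943).

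The polyhomeotic proteins, which join PRC1 complexes to each other through their SAM domains, are encoded by 3 genes. Phc1 had 15.1, 12.5, 10.5 and 15.5 CPM in new AML and 7.71, 6.6, 7.52 and 5.12 CPM in aggressive AML. It fell by 0.99 on the log2 scale (SE 0.19, adjusted p = 0.00201), and every aggressive AML library lay below every new AML library. Phc2, the most abundant of these paralogs, went from 82.3 ± 4.43 to 68.7 ± 1.17 CPM (log2 fold change -0.26, adjusted p = 0.0284), a call that was lost on leaving out any of 4 libraries (new AML replicates 1 and 2 and aggressive AML replicates 1 and 2, adjusted p from 0.0637 to 0.0908). Phc3 missed the threshold (log2 fold change -0.19, adjusted p = 0.261).

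Sfmbt2, which encodes a reader of methylated histones with MBT repeats that works with YY1, had the largest log2 rise among the 36 genes. Its level was 3.08, 3.81, 1.56 and 3.01 CPM in new AML and 11, 13.3, 11.8 and 12.3 CPM in aggressive AML. The log2 fold change was 2.08 (SE 0.23, adjusted p = 2.52e-05), and the groups lay far apart. Scml4, a relative of the SAM domain subunits, rose from 3.73 ± 1.23 to 8.15 ± 1.85 CPM (log2 fold change 1.11, adjusted p = 0.00676). Both genes were of low abundance.

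The remaining calls were Yaf2, Fbrs and Phf1. Yaf2, a subunit of variant PRC1 that takes the place of RYBP, rose from 29.9 ± 2.55 to 40.1 ± 4.10 CPM (log2 fold change 0.42, adjusted p = 0.0141, or 0.0537 when new AML replicate 2 is left out). Its paralog Rybp had a log2 fold change of -0.23 and was not called (adjusted p = 0.177). Fbrs, a relative of the PRC1 subunit AUTS2, went from 200.4 ± 13.9 to 164.3 ± 18.5 CPM (log2 fold change -0.29, adjusted p = 0.0353). That call held only when new AML replicate 3 or aggressive AML replicate 4 was the library left out (adjusted p 0.0608 to 0.118 otherwise), and its exons are shared with Gm47278. Phf1, a PRC2 accessory subunit that binds a methyl mark of active genes, went from 24.0 ± 2.75 to 18.5 ± 0.966 CPM (log2 fold change -0.37, adjusted p = 0.0462). It was the least secure call, since limma gave an adjusted p of 0.056 and the fit with a replicate block 0.0634, and leaving out any library except new AML replicate 3 gave 0.0539 to 0.123. Its exons overlap those of Cuta on the opposite strand.

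**Figure D3:**
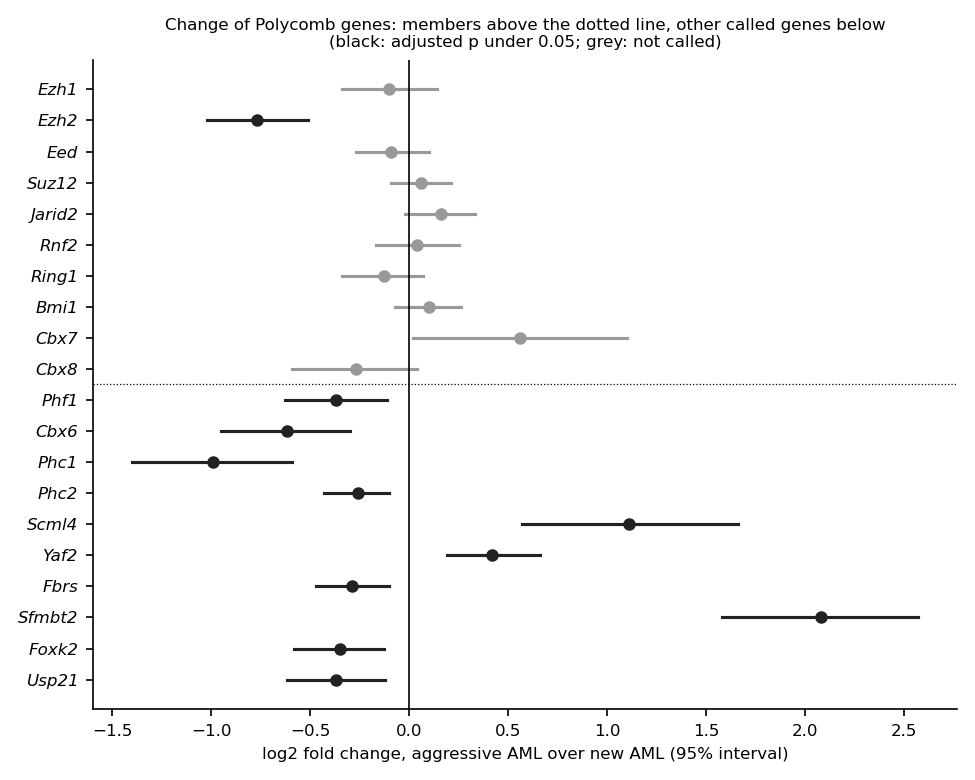
The plot shows the log2 fold change of aggressive over new AML with its 95% interval for the 10 members (above the dotted line) and for the called genes among the other Polycomb genes and the opposing enzymes (below it), without Uty, which had 0 counts in aggressive AML. Black marks an adjusted p under 0.05, and among the members only Ezh2 (-0.77) is black.

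Enzymes that remove the Polycomb marks were taken from a list of 14 genes with 13 tested, among them the demethylases of histone H3 and the subunits and partners of the deubiquitinase BAP1. In edgeR 3 were called (23.1%, against 18.4% of all tested genes), all lower, with a median log2 fold change of -0.03. These 3 calls include Uty, whose absence from aggressive AML goes with that of the other Y-linked genes, so the share is not one of opposing enzymes alone. Without new AML replicate 1 or aggressive AML replicate 3 there was 1 call, lower, and without aggressive AML replicate 1 there were 1 higher and 2 lower calls. Uty, the Y-linked relative of the demethylase Kdm6a, had 26.9, 28.2, 32.4 and 36.1 CPM in new AML and 0 counts in every aggressive AML library. It was at least 85.5-fold lower against a floor of 3 counts per library. It belongs to the Y-linked genes described above. Its X-linked relative Kdm6a was at 54.4 ± 1.51 and 54.2 ± 4.85 CPM (log2 fold change -0.01, 95% interval -0.20 to 0.19, adjusted p = 0.969), and the demethylase Kdm6b at 62.9 ± 6.67 and 77.2 ± 10.9 CPM (log2 fold change 0.30, adjusted p = 0.0738).

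Foxk2, which encodes a transcription factor that binds the BAP1 complex, was also called, as was Usp21, which encodes a deubiquitinase of histone H2A. Each call was lost in 5 of the 8 fits with a library left out. In those 8 fits the log2 fold change stayed at -0.41 to -0.25 for Foxk2 and -0.43 to -0.29 for Usp21. Foxk2 had a log2 fold change of -0.35 (adjusted p = 0.0311) and was called when new AML replicate 4, aggressive AML replicate 2 or aggressive AML replicate 4 was left out, with 0.0515 to 0.0958 for the other libraries. Usp21 had a log2 fold change of -0.37 (adjusted p = 0.0378) and was called without new AML replicate 2, new AML replicate 3 or aggressive AML replicate 1, with 0.0618 to 0.124 for the others. Bap1 itself had a log2 fold change of 0.04 and Asxl1 of -0.03, and neither was called.

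Textbook targets of Polycomb repression were taken from a list of 20 genes, of which 4 had a row and were tested, all of them inhibitors of cyclin-dependent kinases. None was called by edgeR, DESeq2 or limma, and 0 had an unadjusted p under 0.05. Cdkn2a, the target through which BMI1 is best known, had 27.7, 37.2, 41.6 and 27.3 CPM in new AML and 35.3, 32.5, 28.6 and 27.2 CPM in aggressive AML. The groups overlapped, and the log2 fold change was -0.11 (95% interval -0.42 to 0.19, adjusted p = 0.628). Cdkn1a had a log2 fold change of 0.12 (95% interval -0.12 to 0.35, adjusted p = 0.495). Cdkn1c and Cdkn2b lay near 1 to 5 CPM, and their intervals of -0.38 to 1.29 and -0.67 to 1.14 leave room for changes larger than that of Ezh2. The Hoxd genes and the developmental regulators of the list, such as Gata4 and Pax6, had no row, and the authors had removed genes of low CPM. The 4 tested targets therefore do not show how the targets without a row behaved.

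Ezh2 is known to be expressed in dividing and immature cells, and markers of such states and of other cell types are given beside its fall. The leukemia cell markers called in the comparison went in both directions. Kit, the receptor of stem cell factor, and Meis1, a cofactor of HOX proteins, both carried by immature cells, rose with log2 fold changes of 0.65 (adjusted p = 0.0014) and 0.45 (adjusted p = 0.0117), as did Elane, a protease gene of early granulocytes (0.52, adjusted p = 0.0205). The monocyte receptor gene Csf1r (-1.70, adjusted p = 3.76e-07), the integrin gene Itgam of mature myeloid cells (-0.61, adjusted p = 0.00122) and Spi1, which encodes the myeloid factor PU.1 (-0.25, adjusted p = 0.0159), fell. Cd34, a marker of progenitors, was not called (-0.16, adjusted p = 0.247), and neither was Mpo (-0.20, adjusted p = 0.328). Fcgr3 (-0.06, adjusted p = 0.697), Hoxa9 (0.10, adjusted p = 0.384) and Ptprc (-0.13, adjusted p = 0.279) were not called either. The Elane values of the groups overlapped. Of 20 proliferation markers, 1 was called (5%, against 18.4% of all tested genes), Mki67, which fell by 0.29 on the log2 scale (adjusted p = 0.0247). The median log2 fold change of these markers was 0.04. Their summed level was 6030 to 6530 CPM in new AML and 5850 to 6470 CPM in aggressive AML, a sum to which abundant genes contribute most. The part of cell division and of maturation in the fall of Ezh2 was not tested.

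Most neutrophil markers moved with the groups, while the myeloid marker Fcgr3 and most of the tested macrophage markers were not called. Of all tested genes, 18.4% were called, 10.2% lower and 8.15% higher. Of 10 neutrophil markers, 8 were called (80%) and all 8 were lower. Their summed level was 433 to 607 CPM in new AML and 227 to 292 CPM in aggressive AML. Of 7 macrophage markers, 3 were tested and 1 (33.3%), Adgre1, was called lower, with sums of 64.6 to 111 CPM and 37.8 to 57.4 CPM. Of 9 erythroid markers, 7 were tested and 2 (28.6%) were called lower, with sums of 28.4 to 102 CPM and 10.6 to 54.2 CPM. Of 6 T cell markers and 6 NK cell markers, 1 each was tested, Bcl11b and Nkg7, both called higher, with sums of 3.9 to 6.3 and 2.46 to 17.4 CPM for the first and 11.1 to 22.2 and 20 to 29.9 CPM for the second. The T cell genes Cd3d, Cd3e, Cd3g, Cd4 and Cd8a and the NK cell genes Ncr1 and Klrb1c had no row. Of 6 B cell markers, 2 were tested and 1, Cd22, was called lower, with sums of 40.2 to 45.4 CPM and 30.6 to 34 CPM, and Ms4a1 and Pax5 had no row. The part of these cells in the values of the Polycomb genes was not tested.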

How the data were processed

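GFP+ bone marrow cells were sequenced in 4 libraries per group, and the sample labels gave the groups and the replicate numbers. The authors aligned paired-end reads of polyadenylated RNA to mm10 with HISAT2, counted them with Rsubread and removed genes of low CPM. The gene annotation and strand setting are not given in the sources used here. The deposited values, although named for CPM, were whole numbers with a different total per library and were used as raw read counts.

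The 12494 of 12823 rows that reached 1 CPM in 4 or more of the 8 libraries were tested with the quasi-likelihood test of edgeR 4.0.16 in R 4.3.3, with TMM factors, the group as the only term, two-sided p-values and Benjamini-Hochberg adjustment over all tested genes at a threshold of 0.05. The study used limma on log2 CPM, which is an alternative here (limma 3.58.1, pseudocount 1), as are DESeq2 1.42.0, other scaling, no filter, a replicate block and leaving out each library. The script was tested on simulated data. There it called 48% of the genes given a log2 change of 0.5 and 84.7% of those given a log2 change of 1. A gene that was not called may therefore still have changed. Intervals are at 95%. Floors rest on 3 counts and cover counting error only.

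All 10 members were named, together with every gene with an adjusted p under 0.05 in the lists of other Polycomb genes, opposing enzymes and targets. A gene of these lists is not reported here and is left out of their counts. Other genes are named by role, and the called leukemia cell markers were named after their values were seen. The members and lists were chosen with earlier results of these data known. Coordinates and exon lengths are those of GENCODE vM21 (GRCm38, the same build as mm10), and promoter windows those of RefSeq (GRCm38.p6). CPM per kb is CPM divided by the joined length of the exons of a gene's protein-coding transcripts in the basic GENCODE set. Exons of other transcripts are not in that length, while reads on them may have been counted. The labels give no batch or date, so that a batch that follows the groups cannot be told apart from them. Replicates differed beyond sampling noise in every pair of a group.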

Additional observations from a re-analysis of the deposited data

Results flagged for a closer look

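In 5 of 47 groups of 4 libraries checked, the highest or lowest library stood apart from the others by Dixon's criterion, which chance gives in about 1 in 20 groups. Of the members, Eed was at 95.7 CPM in new AML replicate 3 against 82.2 to 84.2 CPM in the other new AML libraries, and Cbx8 at 12.4 CPM in aggressive AML replicate 3 against 19 to 20.4 CPM in the others. Phf1 was at 19.9 CPM in new AML replicate 3 against 25 to 25.8 CPM, and Phc2 at 75.7 CPM in new AML replicate 4 against 83.8 to 85.3 CPM. Usp21 was at 34.5 CPM in aggressive AML replicate 1 against 29.6 to 30.3 CPM.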

How the results depend on the processing

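Ezh2 was called lower in all 14 alternatives, with a log2 fold change of -0.85 to -0.63 on leaving out 1 library and -0.79 to -0.76 otherwise, and an adjusted p of 0.00218 at most. The count of members called was 1 in each alternative. Cbx7 stayed uncalled, with an adjusted p of 0.057 to 0.332. Over the 21 named genes, 2 of 126 values from other scaling, tests or filters lost a call (both Phf1), and 28 of 168 values with a library left out did. These totals include the 9 members not called in the main fit, which had no call to lose. Of the 8 fits per gene with a library left out, Phf1 lost its call in 7 and Fbrs in 6. Foxk2 and Usp21 lost it in 5 each, Phc2 in 4 and Yaf2 in 1. Among the other Polycomb genes 4 to 8 were called on leaving out a library (4 without new AML replicate 2), and among the opposing enzymes 1 to 3 (1 without new AML replicate 1 or aggressive AML replicate 3). Fewer samples enter such a fit. Over all genes 1534 (without new AML replicate 2) to 2381 were called, against 2296. Rnf2 ranged from -0.01 to 0.09 on leaving out a library, with its sign turned without new AML replicate 3, and the cause was not tested.

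Libraries with the same replicate number did not clearly deviate together (correlations 0.10, -0.04, -0.07 and 0.20). Of the 8 libraries, 3 correlated best with the library of their own number in the other group. A pairing by number was thus not seen, but these values cannot exclude one. The fit with the replicate block called 2367 genes, 1 member and 7 other Polycomb genes. With the pairing, the sign-flip test of the Ezh1/Ezh2 ratio gave the same difference of 0.69 with p = 0.125, the smallest that 4 pairs allow in an exact permutation. The differences on leaving out a library were 0.59 to 0.76 for Ezh1/Ezh2, -0.23 to -0.11 for Ring1/Rnf2 and 0.57 to 1.10 for Cbx7/Cbx8. The Ring1/Rnf2 difference reached p = 0.0286 without new AML replicate 4, and the Cbx7/Cbx8 difference reached that value without aggressive AML replicate 4 (exact permutation tests, unadjusted). The depth of 7805544 to 9697777 reads limits genes such as Cbx7, Cdkn1c and Cdkn2b.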
